A study of Mus musculus with 12 samples.

Results

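*Aim2* and 9 other genes of cytosolic nucleic acid sensing were examined in cultured murine BrafV600E melanoma cells lacking 1 of 3 prostaglandin synthesis genes. The 10 genes, out of 30705 gene names in the deposited table, were listed by name, and *Aim2* was chosen by its measured level, which is high in 1 of the lines. Its values are therefore given as a description with no test. The other members are the PYHIN genes *Ifi204* and *Ifi202b*, *Mb21d1* (the older symbol of cGAS), *Tmem173* (the older symbol of STING), *Zbp1*, *Casp1*, *Pycard*, *Nlrp3*, and *Trex1*. Over the 12 samples, 7 of the 10 members reached the mean of 1 RPKM (read counts scaled for transcript length and library size) that was required for testing, 6 of them besides *Aim2*. *Aim2* and *Tmem173* passed it only through the line in which each is high, since their means over the other 9 samples were 0.371 and 0.361 RPKM.

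The cells came from a C57BL/6 mouse whose genotype was Braf+/LSL-V600E, Tyr::CreERT2+/o, and p16INK4a-/-, so that all lines share the melanocyte-targeted BrafV600E allele and the loss of p16INK4a. CRISPR/CAS9 was used to knock out *ptgs1* (COX-1), *ptgs2* (COX-2), or *ptges* (mPGES-1), puromycin was used for selection, and limiting dilution gave the subclones. RNA-seq was available for 3 samples of scramble control cells and for 3 of each knockout line (*ptgs1*-KO, *ptgs2*-KO, *ptges*-KO), all grown in culture without further treatment. The samples of a line are described by the study both as 3 subclones and as independent samples, so the p values measure the spread between these samples, and a property of the line and an effect of the lost gene cannot be told apart. The spacing of the low values pointed to a depth of 13.3 to 17.2 M reads per sample. The library of *ptgs1*-KO replicate 3 stood apart in 1 respect, a single transcript (*AK155692*) at 74435 RPKM, where the top value of the other libraries was 37726 RPKM at most.

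DNA in the cytosol is a danger signal for mammalian cells. AIM2, named for its absence in melanoma, binds double-stranded DNA and, through the adaptor ASC (*Pycard*), activates caspase-1, which matures interleukins and cleaves gasdermin D. cGAS instead makes a cyclic dinucleotide that activates STING, and STING signals through TBK1 and IRF3 to type I interferon, while TREX1 degrades the DNA that would trigger the pathway.

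Each line was first checked for its own target. *Ptgs1* averaged 16.0 ± 1.5 RPKM (SD, n = 3) in *ptgs1*-KO cells, which was 10.6% of its level in scramble cells. *Ptgs2* averaged 79.8 ± 4.4 RPKM (SD, n = 3) in *ptgs2*-KO cells, 10.5% of scramble. *Ptges* averaged 37.1 ± 3.4 RPKM (SD, n = 3) in *ptges*-KO cells, 47.9% of scramble. In the *ptgs1*-KO line *Ptges* was at 54.5 ± 2.8 RPKM (SD, n = 3). The values of each target in its own line lay under those of every other sample, so the labels held, although transcripts of the targeted genes were still counted.

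The labelled cell type was checked against marker genes because several sensors are best known from leukocytes. Of 8 melanocyte markers, *Sox10*, *Dct*, *Mlana*, and *Tyrp1* were listed at 0 in all 12 samples, and the most abundant was *Mitf*, at a mean of 2.30 RPKM. Of 12 leukocyte and macrophage markers, *Lyz2*, *Emr1*, *Tyrobp*, and *Cd3e* were listed at 0 throughout and *Ptprc*, the pan-leukocyte CD45, did not exceed 0.13 RPKM. The summed level of that list was 6.40 to 11.2 RPKM per sample and came mostly from *Cd14*, at a mean of 6.89 RPKM. It was 7.27 to 8.21 RPKM in *ptgs2*-KO samples and 8.12 to 11.2 RPKM in scramble samples. *Ptprc* had 0.13, 0.09, and 0.03 RPKM in *ptgs2*-KO and 0.13, 0.07, and 0.04 RPKM in *ptges*-KO samples, beside 0.01, 0.02, and 0.03 RPKM in scramble samples. The part of these markers in the results was not tested. Both keratinocyte markers were listed at 0, and no endothelial marker reached 0.5 RPKM. Among 5 fibroblast markers, *Dcn* and *Lum* were listed at 0 and *Pdgfra* was the most abundant, with 9.86 to 11.1 RPKM in *ptgs1*-KO samples and a mean of 3.77 ± 0.48 RPKM (SD, n = 3) in *ptgs2*-KO samples. The summed level of the 5 was 10.8 to 12.5 RPKM in *ptgs1*-KO and 3.78 to 4.98 RPKM in *ptgs2*-KO samples, and its part in the results was not tested.

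*Aim2* was expressed mainly in *ptgs2*-KO cells. It lies on mouse chromosome 1 (GRCm38, 173350879 to 173466040, plus strand). Scramble samples had 0.68, 0.72, and 1.01 RPKM, and *ptgs2*-KO samples had 13.6, 13.1, and 13.2 RPKM. *ptgs1*-KO samples had 0.17, 0.26, and 0.27 RPKM, and *ptges*-KO samples had 0.05, 0.09, and 0.09 RPKM. The 4 lines did not overlap, in the order *ptgs2*-KO, scramble, *ptgs1*-KO, and *ptges*-KO. The *ptgs2*-KO mean of 13.3 ± 0.25 RPKM (SD, n = 3) was 16.6 times that of scramble cells, 0.803 ± 0.18 RPKM (SD, n = 3). On the log2(RPKM + 1) scale the difference from scramble was 2.99 in *ptgs2*-KO, -0.54 in *ptgs1*-KO, and -0.74 in *ptges*-KO cells, and for so low a gene this scale understates the decreases. At the estimated depths and the longest annotated coding transcript, 3 reads of *Aim2* would give 0.0614 to 0.0793 RPKM, so the *ptges*-KO values rest on a handful of reads. In RNA from whole cultures, fewer cells with a transcript and less transcript per cell cannot be told apart.

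**Figure D1:**
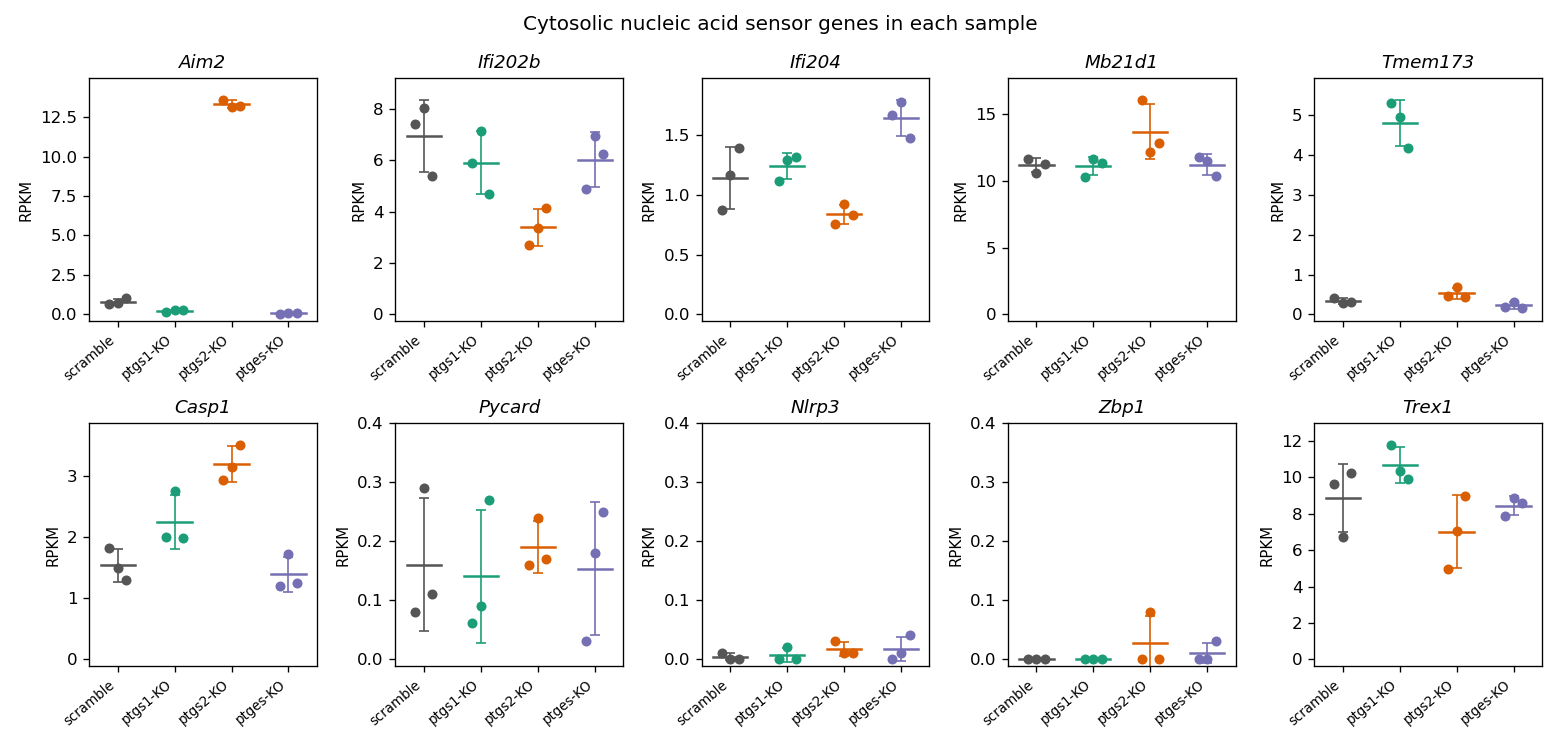
RPKM of the 10 sensor genes (y axis, from 0, a separate scale per gene) in the 4 lines (x axis). Points are samples, horizontal lines are means of 3 samples, and bars are SD. *Aim2* stands at 13.1 to 13.6 RPKM in *ptgs2*-KO cells and *Tmem173* at 4.17 to 5.31 RPKM in *ptgs1*-KO cells, while *Pycard*, *Nlrp3*, and *Zbp1* stay under 0.3 RPKM everywhere.

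The upstream sequences of the 3 members that stood out in *ptgs2*-KO cells are shown here, *Aim2* and *Casp1* being high in that line and *Ifi202b* low. Each is the 250 bases before the transcription start in RefSeq (GRCm38.p6), 5′ to 3′ on the strand of the gene, at chr1:173420354-173420603 (plus) for *Aim2*, chr9:5298267-5298516 (plus) for *Casp1*, and chr1:173982845-173983094 (minus) for *Ifi202b*. Capitals mark matches to any of the 5 motifs searched.
Aim2: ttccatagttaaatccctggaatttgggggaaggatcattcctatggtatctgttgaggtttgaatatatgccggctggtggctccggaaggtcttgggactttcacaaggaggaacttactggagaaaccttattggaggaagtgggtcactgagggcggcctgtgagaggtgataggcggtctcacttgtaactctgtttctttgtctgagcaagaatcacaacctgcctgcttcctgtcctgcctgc
Casp1: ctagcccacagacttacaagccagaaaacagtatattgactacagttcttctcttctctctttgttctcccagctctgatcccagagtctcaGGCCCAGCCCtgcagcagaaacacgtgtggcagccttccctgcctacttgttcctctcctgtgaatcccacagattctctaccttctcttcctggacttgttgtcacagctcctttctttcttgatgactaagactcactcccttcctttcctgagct
Ifi202b: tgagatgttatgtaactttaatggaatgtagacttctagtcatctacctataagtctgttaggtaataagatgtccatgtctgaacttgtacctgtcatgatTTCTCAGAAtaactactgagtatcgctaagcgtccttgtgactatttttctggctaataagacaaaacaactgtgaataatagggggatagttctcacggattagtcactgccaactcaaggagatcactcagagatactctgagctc
The motifs were searched on both strands of the window from 250 bases before to 50 bases after the start. They were the core of the interferon-stimulated response element, TTCNNNGAA (gamma-activated site), TGACGTCA (cAMP response element), its core TGACG, which overlaps it, and a loose form of the NF-kappa-B site in which only the outer bases are fixed. Over the 32851 promoters of the RefSeq table they were present in 3.44%, 8.30%, 1.79%, 20.8%, and 50.8%, in that order. The *Aim2* window held none of these letter patterns. It lies inside the annotated extent of *Aim2*, and the sequence before the start of that extent was not searched. The *Casp1* window held only the loose NF-kappa-B form, on the minus strand at -158 to -149 from the start, and the *Ifi202b* window held only TTCNNNGAA, at -148 to -140. Promoter sequences were matched for 7 of the 10 members.

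By the rule fixed for *Aim2*, the 5 tested genes with the most similar profile over the 12 samples were *Col7a1* (Pearson r = 0.989), *Hspb1* (0.987), *Adcy7* (0.979), *Arl4c* (0.964), and *Gclm* (0.964). These r values are a description, and all rest on the same contrast between the 3 *ptgs2*-KO samples and the rest. *Col7a1*, the collagen of anchoring fibrils, averaged 10.7 RPKM in *ptgs2*-KO cells and 1.71 to 2.10 RPKM in the other lines. *Hspb1*, a small heat shock protein, averaged 4.24 RPKM in *ptgs2*-KO cells and at most 0.21 RPKM in the others, so it was the nearest to *Aim2* in being almost confined to that line. *Adcy7*, an adenylyl cyclase, averaged 10.3 RPKM against 1.90 to 3.25 RPKM.

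*Ifi202b* and *Ifi204* belong with *Aim2* to the PYHIN family, most of whose members carry a DNA-binding HIN domain, and both lie in the same cluster on chromosome 1. *Ifi202b* (173962568 to 173982744, minus strand) encodes p202, a HIN protein without a pyrin domain that is known as an antagonist of AIM2. Its level was 7.42, 8.05, and 5.37 RPKM in scramble samples and 2.69, 3.35, and 4.12 RPKM in *ptgs2*-KO samples. The 2 ranges did not overlap, and the *ptgs2*-KO mean of 3.39 ± 0.72 RPKM (SD, n = 3) was 48.8% of scramble. The log2 fold change was -0.85 (SE 0.18), with a limma adjusted p = 0.00859. It was thus the PYHIN gene with the highest level in scramble cells that fell in the line in which *Aim2* was high. The call was lost in the Tukey comparisons on untransformed values, whose p values were also adjusted over all genes (adjusted p = 0.213). In *ptgs1*-KO samples it had 5.89, 7.13, and 4.67 RPKM and in *ptges*-KO samples 4.87, 6.96, and 6.25 RPKM, both overlapping scramble.

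*Ifi204* (173747293 to 173766943, minus strand) is the mouse gene most often set beside human IFI16, a nuclear and cytosolic DNA sensor. It had 0.87, 1.17, and 1.39 RPKM in scramble, 1.12, 1.29, and 1.32 RPKM in *ptgs1*-KO, 0.76, 0.92, and 0.83 RPKM in *ptgs2*-KO, and 1.67, 1.78, and 1.48 RPKM in *ptges*-KO samples. All *ptges*-KO samples lay above all scramble samples, but the log2 fold change of 0.31 (SE 0.12) did not pass (limma adjusted p = 0.0838). Under quantile normalization it did (adjusted p = 0.00706), as it did with no trend in the variance (0.0338). Against *ptgs2*-KO cells, the lowest line, the *ptges*-KO level differed by 0.52 (SE 0.12, limma adjusted p = 0.0112), a call that was lost when *ptges*-KO replicate 2 was left out (0.0557). Of the 101-base windows of its longest transcript, 16.7% also occur in *Ifi207*, *Ifi211*, or *Mndal*, so part of its reads may be shared with these copies. *Ifi202b* and *Aim2* had no such window.

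Among the 12 PYHIN genes in the table, 4 besides *Aim2* were tested. In *ptgs2*-KO cells 1 of the 4 rose and 1 fell, while 5.97% of all tested genes were higher and 5.17% lower. In *ptgs1*-KO and *ptges*-KO cells, where 9.26% and 26.3% of all tested genes passed in either direction, none of the 4 passed by limma or Tukey, 2 in each having an unadjusted p under 0.05, with medians of 0.23 and -0.15 beside 0.01 and -0.03 over all tested genes. *Ifi202b* fell, as above, and *Mnda*, a myeloid nuclear antigen listed as *Ifi211* in the annotation, rose from 1.92 to 3.57 RPKM, a log2 fold change of 0.65 (SE 0.15, limma adjusted p = 0.0162). That call was lost in the Tukey comparisons (0.135) and without scramble replicate 2 (0.0615) or *ptgs2*-KO replicate 3 (0.0559). The median log2 fold change of the 4 was -0.30 in *ptgs2*-KO cells, beside 0.01 over all genes tested.

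The genes next to *Aim2* did not share its level in *ptgs2*-KO cells. The 6 genes on its left side were listed at 0 in all samples, including *Cadm3*, whose minus-strand transcript overlaps the annotated extent of *Aim2*. On the right side, *Pydc4* was listed at 0, and *Pyhin1*, *Pydc3*, and *AI607873* did not exceed 0.30 RPKM in any sample. *Ifi203* had means of 1.44 RPKM in scramble and 0.867 RPKM in *ptgs2*-KO cells, and *Mndal* had 0.313 and 0.263 RPKM. *Ifi202b* and *Ifi204* also had lower means in *ptgs2*-KO cells, whereas *Mnda* was higher, at 1.92 and 3.57 RPKM. The low means of *Pydc3*, *Pyhin1*, and *AI607873* were higher there as well, at most 0.217 RPKM in *ptgs2*-KO cells.

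**Figure D2:**
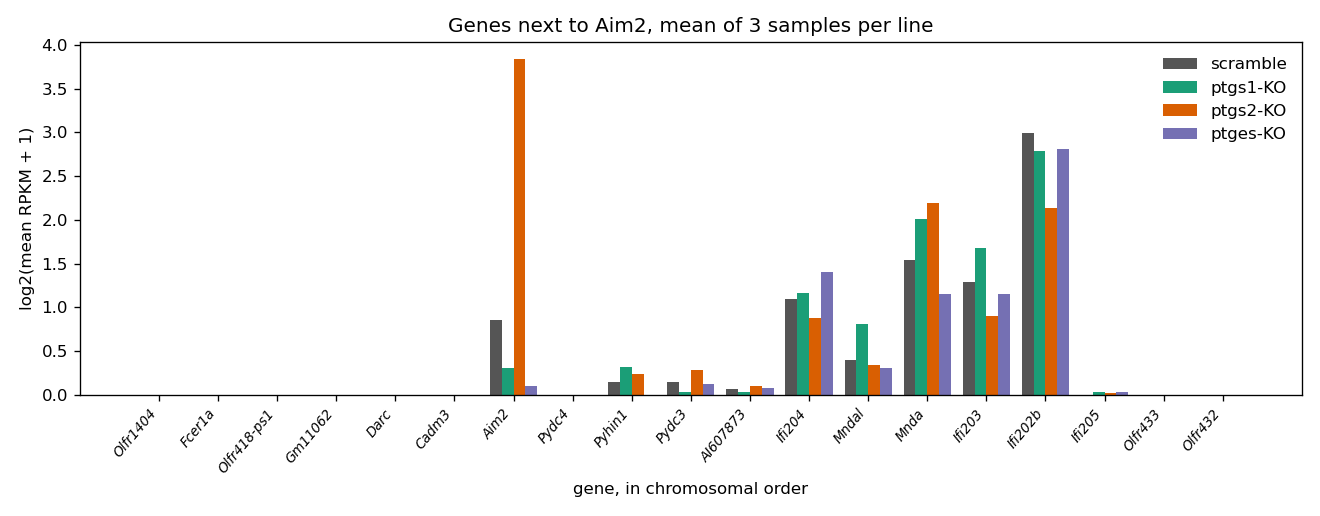
Mean levels of the genes around *Aim2*, in chromosomal order without distances (x axis), as log2(mean RPKM + 1) (y axis, bars from 0) in the 4 lines, 3 samples each. Only *Aim2*, *Mnda*, *Pydc3*, *Pyhin1*, and *AI607873* have a higher *ptgs2*-KO than scramble mean by more than 0.02 RPKM, and *Aim2* alone reaches 13.3 RPKM.

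*Casp1* encodes caspase-1, the protease of inflammasomes, and was the 1 tested member that rose in *ptgs2*-KO cells (chromosome 9, 5298517 to 5307265, plus strand). It had 1.82, 1.49, and 1.30 RPKM in scramble samples and 2.93, 3.14, and 3.51 RPKM in *ptgs2*-KO samples, with no overlap. The *ptgs2*-KO mean of 3.19 ± 0.29 RPKM (SD, n = 3) was 2.08 times that of scramble, 1.54 ± 0.26 RPKM (SD, n = 3). The log2 fold change was 0.73 (SE 0.14), with a limma adjusted p = 0.00477, and the call was kept in all 21 alternatives that tested it. *ptgs1*-KO samples had 2.00, 2.75, and 1.99 RPKM, all above scramble, with a log2 fold change of 0.35 (SE 0.14) that did not pass (limma adjusted p = 0.140). *ptges*-KO samples, at 1.20, 1.72, and 1.25 RPKM, overlapped scramble. From *ptgs2*-KO to *ptges*-KO cells *Casp1* fell by 0.82 on the log2 scale (SE 0.14, limma adjusted p = 0.00128).

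*Pycard*, which encodes the adaptor ASC that links AIM2 and NLRP3 to caspase-1, was barely detected in any line (chromosome 7, 127989708 to 127993867, minus strand). Scramble samples had 0.08, 0.29, and 0.11 RPKM, *ptgs1*-KO samples 0.06, 0.09, and 0.27 RPKM, *ptgs2*-KO samples 0.16, 0.24, and 0.17 RPKM, and *ptges*-KO samples 0.03, 0.18, and 0.25 RPKM. All 4 lines overlapped. *Nlrp3*, the sensor of a parallel inflammasome (chromosome 11, 59541568 to 59566956, plus strand), did not exceed 0.04 RPKM and was listed at 0 in 5 of 12 samples. Both were under the level required for testing, as was *Zbp1*, and with no such filter none of the 3 passed in any of the 6 comparisons (lowest limma adjusted p = 0.460). At these depths 3 reads of *Nlrp3* would give 0.0434 to 0.0560 RPKM, so a difference between lines was not detectable.

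Of 20 inflammasome and pyroptosis genes, 6 were tested, and 4 were listed at 0 in every sample. *Naip2*, which recognizes bacterial secretion proteins for the NLRC4 inflammasome, had means of 0.920 RPKM in scramble and 2.57 RPKM in *ptgs2*-KO samples, although *Nlrc4* itself was among the genes at 0. It was tested only through that line, its mean over the other 9 samples being 0.982 RPKM, and was left out of the counts. In *ptgs2*-KO cells, 1 of the other 5 (*Casp1*) rose and 1 fell, where 5.97% of all tested genes were higher and 5.17% lower. *Dfna5*, the pore-forming gasdermin E, fell from 3.01 to 1.75 RPKM (log2 fold change -0.54, SE 0.10, limma adjusted p = 0.00449). In *ptgs1*-KO cells the same gene was the 1 that rose, to 5.61 RPKM (0.72, SE 0.10, limma adjusted p = 0.000482), and none fell, beside 4.65% that rose and 4.61% that fell among all tested genes. In *ptges*-KO cells, where 11.9% rose and 14.4% fell, none rose and *Gsdmd*, the gasdermin cleaved by caspase-1, fell from 5.01 to 1.57 RPKM (-1.20, SE 0.18, limma adjusted p = 0.000459). The calls of *Dfna5* held in the Tukey comparisons and that of *Gsdmd* was lost there (0.106). The median log2 fold change of the 5 was 0.35 in *ptgs1*-KO, 0.11 in *ptgs2*-KO, and 0.07 in *ptges*-KO cells, beside 0.01, 0.01, and -0.03 over all genes tested. *Il1b*, the cytokine precursor processed by caspase-1, was listed at 0 in all samples, and *Il18* did not exceed 0.26 RPKM.

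*Mb21d1*, the DNA sensor cGAS, had the highest mean of the 10 members on the length-scaled RPKM (chromosome 9, 78430526 to 78443237, minus strand). It had 11.7, 10.6, and 11.3 RPKM in scramble samples, 10.3, 11.6, and 11.4 RPKM in *ptgs1*-KO samples, 16.1, 12.2, and 12.8 RPKM in *ptgs2*-KO samples, and 11.8, 11.5, and 10.4 RPKM in *ptges*-KO samples. The *ptgs2*-KO samples lay above all scramble samples, yet the log2 fold change of 0.26 (SE 0.11) did not pass (limma adjusted p = 0.133). Against scramble, the 95% interval of the log2 difference, not adjusted for the number of genes, was 0.03 to 0.49 in *ptgs2*-KO, -0.24 to 0.22 in *ptgs1*-KO, and -0.23 to 0.23 in *ptges*-KO cells.

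*Tmem173*, which encodes STING, the receptor of the cGAS product, was high in *ptgs1*-KO cells. Scramble samples had 0.41, 0.29, and 0.30 RPKM and *ptgs1*-KO samples had 5.31, 4.95, and 4.17 RPKM. *ptgs2*-KO samples had 0.47, 0.68, and 0.43 RPKM, and *ptges*-KO samples had 0.18, 0.32, and 0.17 RPKM. *ptgs1*-KO samples were far above all others, and the *ptges*-KO and scramble ranges overlapped. The *ptgs1*-KO mean of 4.81 ± 0.58 RPKM (SD, n = 3) was 14.4 times that of scramble, 0.333 ± 0.067 RPKM (SD, n = 3). The log2 fold change was 2.12, given with no test because the gene reached the required level only through that line. *Tmem173* and *Aim2*, which act in separate DNA-sensing routes, were thus each high in a different line.

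Of 12 genes of the cGAS and STING pathway, 10 were tested, *Tmem173* and *Mb21d1* among them. Because *Tmem173* was tested only through its *ptgs1*-KO level, it was left out of the counts. Of the other 9, none passed by limma or Tukey in *ptgs1*-KO cells, 2 having an unadjusted p under 0.05, where 9.26% of all tested genes passed. None passed by either in *ptgs2*-KO cells, again with 2 at an unadjusted p under 0.05, where 11.1% passed. Under *ptges* loss none rose and 2 fell, where 14.4% of all tested genes were lower. *Ikbke*, a kinase related to TBK1, fell from 2.90 to 0.887 RPKM (log2 fold change -1.04, SE 0.14, limma adjusted p = 0.000208). *Trim56*, a ubiquitin ligase, fell from 13.1 to 10.0 RPKM (-0.36, SE 0.12, limma adjusted p = 0.0471), a call lost in 12 of 22 alternatives. *Tbk1* and *Irf3*, the kinase and the transcription factor downstream of STING, were at 26.8 to 35.3 and 18.1 to 28.6 RPKM across all samples. The median log2 fold change of the 9 was -0.01 in *ptgs1*-KO, 0.02 in *ptgs2*-KO, and -0.14 in *ptges*-KO cells.

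**Figure D3:**
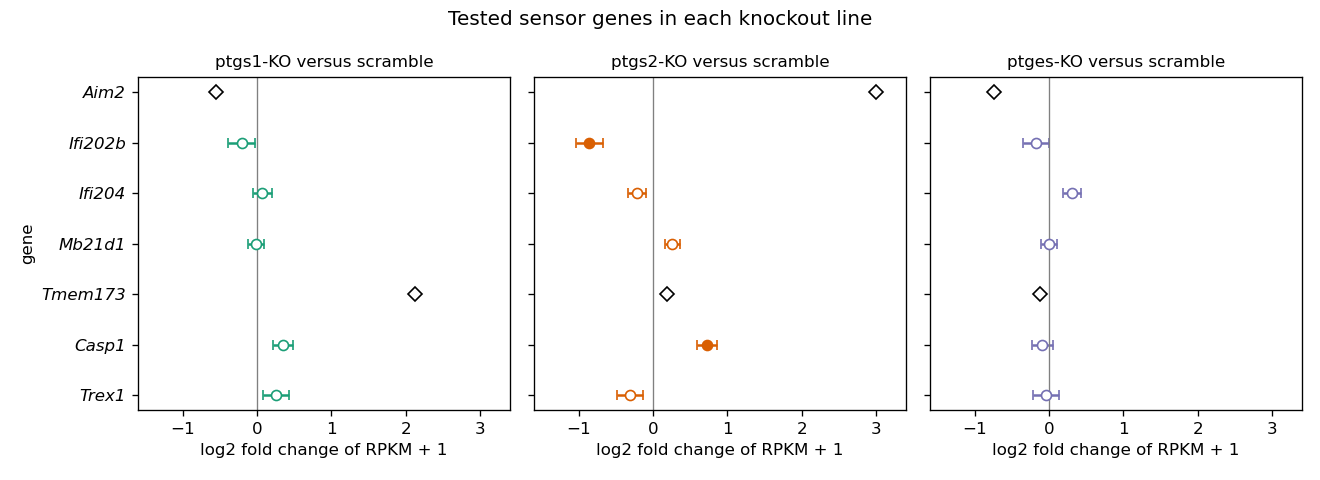
Log2 fold change of RPKM + 1 against scramble (x axis) of the 7 sensor genes tested (y axis) in each knockout line, 3 samples per line. Circles with bars are fitted values with SE, filled where the limma adjusted p was under 0.05, and open diamonds are *Aim2* and *Tmem173*, given with no test because each reached the required level only through 1 line. Filled circles are *Casp1* at 0.73 and *Ifi202b* at -0.85 in *ptgs2*-KO cells, and *Tmem173* lies at 2.12 in *ptgs1*-KO cells.

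*Trex1*, the main exonuclease that clears cytosolic DNA, had 9.62, 6.71, and 10.2 RPKM in scramble, 11.8, 10.3, and 9.92 RPKM in *ptgs1*-KO, 4.97, 7.05, and 8.99 RPKM in *ptgs2*-KO, and 7.87, 8.87, and 8.60 RPKM in *ptges*-KO samples (chromosome 9, 109057933 to 109059734, minus strand). Each knockout line overlapped scramble, and none of the 3 fold changes against it passed. *ptgs2*-KO samples lay under *ptgs1*-KO samples, with a log2 difference of -0.57 (SE 0.18, limma adjusted p = 0.0318). That call was lost in the Tukey comparisons (0.265), under quantile normalization, with no filter, with only the 2 groups compared, and without any one of *ptgs1*-KO replicates 1 (0.102), 2 (0.0621), and 3 (0.0505) or *ptgs2*-KO replicates 1 (0.116) and 2 (0.0655). Of the 101-base windows of the *Trex1* transcript, 91.2% also occur in annotated transcripts of *Atrip*, the neighbouring gene, so its level is uncertain.

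Of 19 genes of nucleases and the control of self nucleic acid, 13 were tested and 1 was listed at 0 throughout. *Dnase1l2* was tested only through its scramble level (a mean of 1.53 RPKM, and 0.968 RPKM over the other 9 samples) and was left out of the counts. Of the other 12, none passed by limma or in the Tukey comparisons in *ptgs1*-KO cells, 1 having an unadjusted p under 0.05, where 9.26% of all tested genes passed. The *ptgs2*-KO line had 1 that rose and 2 that fell, beside 5.97% higher and 5.17% lower over all tested genes. *Samhd1*, which lowers the pool of DNA building blocks, rose from 17.8 to 24.7 RPKM (log2 fold change 0.45, SE 0.11, limma adjusted p = 0.0167). *Dnase1l1*, a relative of DNase I, fell from 16.0 to 10.2 RPKM (-0.60, SE 0.14, limma adjusted p = 0.0177), and *Skiv2l*, an RNA helicase of the exosome, had a call lost in 11 of 22 alternatives. The *Samhd1* call was lost in the Tukey comparisons (0.169) and without scramble replicate 1 (0.0809) or *ptgs2*-KO replicate 1 (0.0640), and that of *Dnase1l1* in the Tukey comparisons (0.280) and without scramble replicate 1 (0.0837) or *ptgs2*-KO replicates 1 (0.0690) or 3 (0.0681). In *ptges*-KO cells 2 rose (*Rnaseh2a* and *Samhd1*, named after their values were seen) and 3 fell, where 11.9% and 14.4% of all genes did, among them *Dnase2a*, the lysosomal DNase II, from 16.6 to 12.1 RPKM (-0.43, SE 0.09, limma adjusted p = 0.00457). The *Dnase2a* call was kept in all 22 alternatives and was the 1 call among the 12 in the Tukey comparisons, whereas those of *Skiv2l* and *Banf1* were each lost with at least 3 of the 12 libraries left out in turn. Over the 12 the median log2 fold change was 0.01 with *ptgs1* lost, -0.21 with *ptgs2* lost, and -0.02 with *ptges* lost.

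*Zbp1*, a sensor of Z-form nucleic acid that engages RIPK3 in necroptosis (chromosome 2, 173206612 to 173218923, minus strand), was listed at 0 in 10 of 12 samples. The exceptions were 0.08 RPKM in *ptgs2*-KO replicate 2 and 0.03 RPKM in *ptges*-KO replicate 3, and 3 reads would give 0.0877 to 0.113 RPKM. *Ripk3* was listed at 0 in all samples. Of the 4 tested genes of the ZBP1 and necroptosis list, none passed by limma or Tukey after loss of *ptgs1* or *ptgs2*, where 9.26% and 11.1% of all tested genes passed. The medians were 0.15 and 0.11, and 1 and 0 of the 4 had an unadjusted p under 0.05. Of the same 4, 2 rose in *ptges*-KO cells, with a median of 0.16, where 11.9% of all tested genes were higher. *Mlkl*, the pore-forming effector of necroptosis, rose from 32.0 to 43.0 RPKM (log2 fold change 0.42, SE 0.10, limma adjusted p = 0.00900), a call lost in the Tukey comparisons (0.0839). *Casp8* rose from 25.7 to 30.8 RPKM (0.25, SE 0.08, limma adjusted p = 0.0276), a call lost in the Tukey comparisons (0.0663), without the 20 highest genes, and without scramble replicate 1 (0.0774) or 2 (0.103) or *ptges*-KO replicate 1 (0.0792) or 2 (0.0865).

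The members were then counted in each comparison, *Aim2* left out. *Tmem173* was also left out of every comparison, since its *ptgs1*-KO level is what put it among the tested genes. In *ptgs1*-KO against scramble none of the other 5 passed by limma, 1 of them (*Casp1*) having an unadjusted p under 0.05, where 9.26% of all tested genes passed, 4.65% higher and 4.61% lower. The Tukey comparisons passed none of the 5 either. In *ptgs2*-KO against scramble 2 passed, *Casp1* higher and *Ifi202b* lower, where 11.1% of all genes passed. In *ptges*-KO against scramble none of the 5 passed by limma, 1 of them (*Ifi204*) having an unadjusted p under 0.05. Of all genes 26.3% passed there, 11.9% higher and 14.4% lower. The Tukey comparisons also passed none there. The 3 comparisons share the scramble samples.

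Between knockout lines, 3 of the 5 passed in *ptges*-KO against *ptgs2*-KO, *Casp1* being lower and *Ifi202b* and *Ifi204* higher in *ptges*-KO. Of all genes 16.6% passed there, 6.76% higher and 9.84% lower. *Ifi202b* had a log2 difference of 0.68 (SE 0.18, limma adjusted p = 0.0196), a call lost in the Tukey comparisons (0.404), with no filter, and without *ptgs2*-KO replicate 1 (0.0863) or 2 (0.0543) or *ptges*-KO replicate 2 (0.0905) or 3 (0.0696). In *ptges*-KO against *ptgs1*-KO 1 of the 5 passed, *Casp1*, which was lower, where 30.2% of all genes passed, 13.2% higher and 17.0% lower. *Casp1* there had a log2 difference of -0.44 (SE 0.14, limma adjusted p = 0.0283), a call lost under quantile normalization, with only the 2 groups compared, in the Tukey comparisons (0.195), and without *ptgs1*-KO replicate 2 (0.112) or *ptges*-KO replicates 1 (0.0806) or 3 (0.0936). In *ptgs2*-KO against *ptgs1*-KO 2 of the 5 passed, *Ifi202b* and *Trex1*, both lower, where 23.6% of all genes passed, 12.1% higher and 11.6% lower. *Ifi202b* there had a log2 difference of -0.65 (SE 0.18, limma adjusted p = 0.0184), a call lost under quantile normalization, in the Tukey comparisons (0.358), and without *ptgs1*-KO replicate 2 (0.0774) or *ptgs2*-KO replicate 1 (0.0688).

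The sensors of other compartments and of RNA were compared as the surroundings of the members. Of 16 cytosolic RNA sensing genes 5 were tested. In *ptgs1*-KO cells *Ddx58*, the RNA sensor RIG-I, was the 1 that rose, from 2.45 to 4.05 RPKM (log2 fold change 0.55, SE 0.11, limma adjusted p = 0.00747), and none fell, where 4.65% of all tested genes rose and 4.61% fell. In *ptgs2*-KO cells none passed by limma or Tukey, with a median of 0.12 and 1 at an unadjusted p under 0.05, where 11.1% of all genes passed. In *ptges*-KO cells *Trim25*, a ubiquitin ligase of the RIG-I pathway, was the 1 that rose, from 7.82 to 13.6 RPKM (0.73, SE 0.14, limma adjusted p = 0.00193), and none fell, where 11.9% of all genes rose and 14.4% fell. The medians in *ptgs1*-KO and *ptges*-KO cells were 0.26 and 0.21. None of the 5 tested genes of endosomal nucleic acid sensing passed in any line against scramble by limma or Tukey, where 9.26%, 11.1%, and 26.3% of all tested genes passed with *ptgs1*, *ptgs2*, and *ptges* lost. At an unadjusted p under 0.05 there were 0, 0, and 1. The list had medians of -0.01 in *ptgs1*-KO, 0.06 in *ptgs2*-KO, and 0.13 in *ptges*-KO cells, although *Tlr3*, the endosomal receptor of double-stranded RNA, was present at 3.01 to 8.30 RPKM.

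Genes of the interferon response, the output of the cGAS and STING route, showed a mixed picture. *Ifnb1* was listed at 0 in all samples. Of 25 listed genes 10 were tested, with 2 rising and 1 falling in *ptgs1*-KO, 1 rising and 1 falling in *ptgs2*-KO, and 1 rising and 2 falling in *ptges*-KO cells. Over all tested genes, 4.65% rose and 4.61% fell in the first, 5.97% and 5.17% in the second, and 11.9% and 14.4% in the third of these lines. The medians were 0.14, 0.02, and -0.09 in that order. *Bst2*, the virion-trapping tetherin, rose from 10.2 to 16.4 RPKM in both *ptgs2*-KO (log2 fold change 0.63, SE 0.13, limma adjusted p = 0.00789) and *ptges*-KO cells (0.62, SE 0.13, limma adjusted p = 0.00392). *Stat2*, a subunit of the interferon-activated ISGF3 complex, fell from 6.41 to 3.85 RPKM in *ptgs2*-KO (-0.61, SE 0.11, limma adjusted p = 0.00286) and to 3.97 RPKM in *ptges*-KO cells (-0.58, SE 0.11, limma adjusted p = 0.00183). *Tap1*, the peptide transporter of antigen presentation, fell in *ptgs1*-KO cells from 12.3 to 7.42 RPKM (-0.66, SE 0.13, limma adjusted p = 0.00625). In the Tukey comparisons the calls of *Tap1* in *ptgs1*-KO cells (0.213) and of *Bst2* with *ptgs2* lost (0.180) and *ptges* lost (0.101) did not pass, and both calls of *Stat2* did. The calls of *Ifit2* and *Bst2* in *ptgs1*-KO cells were lost in 7 and 14 of 22 alternatives, and that of *Irf1* in *ptges*-KO cells in 7 of 22.

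Below the level required for testing, the interferon response genes were described by whether their knockout and scramble samples overlapped. Of 14 such genes that were above 0 in at least 1 sample, 6 had all *ptgs1*-KO samples above all scramble samples and none had them below. Among all 7342 genes of this kind, 4.99% were above and 4.63% below. *Ccl5* and *Rsad2*, among the 6, were listed at 0 in the other 9 samples, so the requirement of a value above 0 fixed their direction. The rest of the 6 were *Isg15*, *Ifit1*, *Ifit3*, and *Cxcl10*, and no conclusion was drawn from the count. The counts were 2 above and 1 below in *ptgs2*-KO cells, where 3.98% and 6.44% of all such genes were, and 1 above and 0 below in *ptges*-KO cells, where 4.44% and 9.36% were. The 4 genes given next were chosen after their values were seen. *Cxcl10*, a T cell-attracting chemokine, had 1.15, 1.13, and 1.16 RPKM in *ptgs1*-KO samples and 0.11, 0.29, and 0.12 RPKM in scramble samples. *Isg15*, a ubiquitin-like modifier, had 1.11, 2.61, and 2.15 RPKM against 0.34, 0.81, and 0.63 RPKM. *Ifit1*, which binds foreign RNA, had 0.66, 0.49, and 0.67 RPKM and did not exceed 0.04 RPKM in scramble samples. *Ccl5*, another T cell chemokine, had 0.29, 0.74, and 0.14 RPKM and was listed at 0 in the other 9 samples. These are levels of few reads, the line is the one in which *Tmem173* was high, and a link between these values was not tested.

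**Figure D4:**
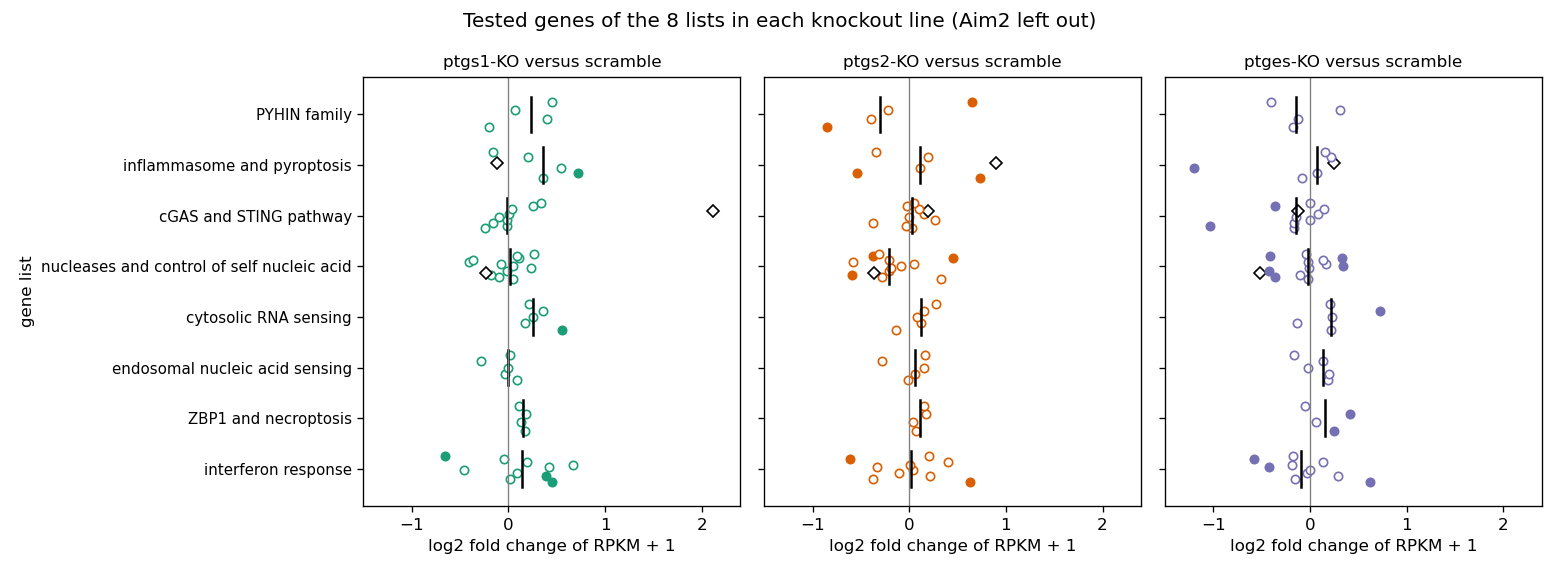
Log2 fold change of RPKM + 1 against scramble (x axis) of the tested genes of 8 lists (y axis) in each knockout line, *Aim2* left out. Each circle is 1 gene over 3 samples per line, filled where the limma adjusted p was under 0.05, and black bars are list medians. Open diamonds are *Tmem173*, *Naip2*, and *Dnase1l2*, which reached the required level only through 1 of the 4 groups and are left out of the medians. The point farthest right is *Tmem173* at 2.12 in *ptgs1*-KO cells, and the farthest left are *Gsdmd* at -1.20 and *Ikbke* at -1.04 in *ptges*-KO cells.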

How the data were processed

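RNA was measured in 12 samples of cultured cells, 3 of scramble and 3 per knockout line, grouped by their labels. The authors made 101 bp paired-end reads and deposited RPKM values to 2 decimals. The build named in the submitters' processing notes is mm10, and the aligner and counter are not given in the sources used here. The labels name both the TruSeq v2 and the NEXTflex directional library kit, and the labels and the paper name different RNA kits. The values sum to 878504 to 903881 per sample, so a scaling to another fixed total remains possible. Depth was read from the spacing of low values, of which 40.4% to 59.8% per sample lay within 0.15 of a whole read. The depth chosen was the one with the best score for this spacing, and other depths could come close. In *ptgs2*-KO replicate 3 the chosen depth scored 0.409 and the next best 0.372, so the depths are approximate. No counts were recovered, and intervals of counting error were not computed.

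The 11282 genes whose mean reached 1 RPKM were fitted with limma 3.58.1 (R 4.3.3) on log2(RPKM + 1), with 4 groups, a mean-variance trend, and Benjamini-Hochberg adjustment over all genes, called at an adjusted p under 0.05. The fit was tested on simulated data. Alternatives used no filter or a mean of 10, a pseudocount of 0.1, median ratio and quantile scaling, a replicate block, only the 2 groups compared, no variance trend, Tukey comparisons, the 20 highest genes removed, and each library left out. The Tukey p values, already adjusted for the pairs of groups within each gene, were adjusted again over all genes by Benjamini-Hochberg. A call lost there did not pass both adjustments together, and the Tukey test alone was not used for calls. The labels do not say what a replicate number marks. The deviations of same-numbered samples from their group means correlated at 0.566, 0.112, and 0.254 between *ptgs2*-KO and *ptges*-KO cells. Among different-numbered pairs of these lines, *ptgs2*-KO replicate 2 with *ptges*-KO replicate 3 gave 0.321, and *ptgs2*-KO replicate 3 with *ptges*-KO replicate 2 gave 0.219. The rest were negative, down to -0.475. These values do not settle whether the numbers pair the samples, and the main fit used no pairing. In the other 5 pairs of groups at least 1 same-numbered correlation was under 0.1, and over all 18 they averaged 0.01.

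The members and lists were chosen with earlier results of these data known. Named were all members, from each other list at most the 4 called genes with the largest change per knockout against scramble, and the 5 genes most like *Aim2*. *Nlrc4*, *Il1b*, *Il18*, *Tbk1*, *Irf3*, *Ripk3*, *Tlr3*, *Ifnb1*, and the neighbours and markers named singly were chosen after their values were seen. Positions are from GENCODE M21 (GRCm38), and windows of 101 bases were compared with its transcripts. The sequences are from RefSeq (GRCm38.p6). Protein, tumor, and patient data were not analysed here.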

Additional observations from a re-analysis of the deposited data

Results flagged for a closer look

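Levels differed between knockout lines for 4 members by the limma test of the difference between lines, with values on the log2 scale. Between *ptges*-KO and *ptgs2*-KO cells, *Casp1* differed by -0.82, *Ifi202b* by 0.68, and *Ifi204* by 0.52. Between *ptges*-KO and *ptgs1*-KO cells, *Casp1* differed by -0.44. Between *ptgs2*-KO and *ptgs1*-KO cells, *Ifi202b* differed by -0.65 and *Trex1* by -0.57. *Tmem173* also differed from *ptgs1*-KO cells by -2.24 in *ptges*-KO and by -1.93 in *ptgs2*-KO cells, given as values only, since the gene was tested because of its *ptgs1*-KO level. Of all tested genes, 16.6%, 30.2%, and 23.6% passed in these comparisons, in that order. Among the calls of the 4 members, only that of *Casp1* between *ptges*-KO and *ptgs2*-KO cells was kept in every alternative that tested it. The level of *Trex1* is uncertain, as given above. Every one of these had the 3 samples of each line apart. The share of all tested genes that were apart is not given here, so no conclusion was drawn from it. A check for single outlying samples was not made because it needs groups of at least 4 samples.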

How the results depend on the processing

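Of 37 calls named, 14 were kept in every alternative that tested them, and none reversed. In the Tukey comparisons, with p values adjusted again over all genes, 22 were lost, and 17 were lost with at least 1 library left out. The 37 include the calls of *Tmem173*, *Naip2*, and *Dnase1l2*, each tested only through 1 group. Those of *Tmem173* and *Naip2* are among the 14, and their being kept lends no support. The counts of members, with and without *Tmem173*, kept their main value or came within 1.5 times of it except as follows. With a mean of 10 required, *Mb21d1* was the only member left and the count was 0 in the 5 comparisons that had calls. With *Tmem173* included, the Tukey comparisons gave 1 in *ptgs2*-KO against scramble, *ptges*-KO against *ptgs1*-KO, and *ptgs2*-KO against *ptgs1*-KO. Quantile normalization and the fit without a variance trend gave 1 in *ptges*-KO against scramble, and the latter gave 5 in *ptgs2*-KO against *ptgs1*-KO. With only the 2 groups compared, *ptges*-KO against *ptgs1*-KO gave 1. With each library left out in turn and *Tmem173* still included, the counts were 1 to 3 in *ptges*-KO against *ptgs2*-KO, 1 to 2 in *ptges*-KO against *ptgs1*-KO, and 1 to 3 in *ptgs2*-KO against *ptgs1*-KO. In the 3 comparisons with scramble they stayed at 1, 2, and 0. The 1, in *ptgs1*-KO against scramble, was *Tmem173* alone, which was tested only through that line, so its stability lends no support. Without *Tmem173*, as in the counts given above, *ptges*-KO against *ptgs1*-KO fell from 1 to 0 in the Tukey comparisons, with only the 2 groups compared, and without *ptgs1*-KO replicate 2 or *ptges*-KO replicate 1 or 3 (range 0 to 1). *ptgs2*-KO against *ptgs1*-KO went from 2 to 0 in the Tukey comparisons and without *ptgs2*-KO replicate 1, to 1 with no filter, with only the 2 groups compared, and without *ptgs2*-KO replicate 2 or any 1 *ptgs1*-KO replicate (range 0 to 2), and to 4 without a variance trend. Without *ptgs1*-KO replicate 2 that 1 was *Casp1*, which was higher, and *Ifi202b* and *Trex1* were both lost. *ptgs1*-KO against scramble stayed at 0 in all 22 alternatives. In the comparisons without *ptgs1*-KO cells the exceptions were the same with *Tmem173* left out. In *ptgs1*-KO replicate 3, 1 transcript, *AK155692*, held 74435 RPKM. With a pseudocount of 0.1 the difference of *Aim2* from scramble was 3.91 in *ptgs2*-KO, -1.43 in *ptgs1*-KO, and -2.35 in *ptges*-KO cells. Quantile normalization called *Casp1* and *Mb21d1* in place of *Ifi202b* and *Trex1* in *ptgs2*-KO against *ptgs1*-KO, and *Ifi204* in place of *Casp1* in *ptges*-KO against *ptgs1*-KO. A fit with the replicate block gave the same member counts without *Tmem173*, 0, 2, and 0 against scramble and 3, 1, and 2 between knockout lines. It lost none of the 37 calls. Depth limits *Nlrp3*, *Zbp1*, and the *ptges*-KO level of *Aim2* to a few reads. With 3 samples per line, a difference between lines and one between clones cannot be told apart. In some alternatives the number of all genes called also changed by over 1.5 times, for example from 1257 to 420 in *ptgs2*-KO against scramble with Tukey comparisons and to 1927 with median ratio scaling.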
